A study of Mus musculus with 10 samples.

Results

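Mouse embryonic stem (ES) cells that carry 3 copies of chromosome 11 (Ts11, strain label 129 S7/SvEvBrd, passages 8 and 11) were set against the diploid male line AB1 (WT, 2 copies, passages 18 and 20). The comparison rests on 4 of the 10 arrays of the series, 2 biological replicates of each group, chosen by their titles. The other 6 arrays, 2 each from ES cell lines with an extra chromosome 6 (Ts6, passages 9 and 18), 8 (Ts8, passages 10 and 13) or 15 (Ts15, passages 11 and 14), have 2 copies of chromosome 11 by their labels and served as further comparison samples. All cells grew on irradiated SNL76/7 fibroblasts, which were left to settle out before RNA was taken. Ts11 is 1 line and so is WT, and each replicate is a different passage. The karyotype, the line, its history and its passage range therefore cannot be told apart. The p-values of single genes measure the spread between passages of a line. Those of the permutation tests take each array as a unit, although the 2 arrays of a line are passages of it. Of 2316 genes that the array places on chromosome 11, 1996 were bright enough to be tested, 174 of them long intergenic noncoding RNAs (lincRNAs), against 26193 tested genes elsewhere.

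A trisomic chromosome supplies an additional template for every gene on it, and where transcription follows the template number, RNA rises by the ratio of the copies. Feedback on a gene's own expression, limiting regulators or faster turnover can hold individual RNAs below or push them above that ratio. Chromosome 11 of the mouse holds the Trp53, Brca1 and Stat3 genes, the Hoxb cluster and the type I keratins, and gain of this chromosome is one of the recurrent changes of cultured mouse ES cells.

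A level is given below as log2 of the processed signal relative to the 75th percentile of its array, and a difference as Ts11 minus WT on that log2 scale, with its standard error (SE). A gene is called at a Benjamini-Hochberg adjusted p under 0.05 in limma, fitted on all 10 arrays. Spots well above background made up 77.9% and 78.5% of the noncontrol spots on the WT arrays and 77.0% and 71.4% on those of Ts11. Both groups lay on slide 1 in different slide columns, so slide column and group cannot be told apart. The ES cell label held in both groups: all 27 ES cell core markers were well above background on the 4 arrays, Pou5f1 had levels of 4.74 and 4.78 in WT and 4.55 and 4.47 in Ts11, and Sox2 had 2.85 and 2.96 and 2.83 and 2.99. None of 25 tested fibroblast markers was called, but they were present at a summed linear signal of 58.3 and 58.5 in WT and 59.5 and 49.9 in Ts11.

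Chromosome 11 transcripts were higher in Ts11 as a body, by less than the copy ratio. Their mean difference from WT, taken against the 15 autosomes with no extra copy in any of the lines, was 0.21 and 0.23 in the Ts11 arrays (mean 0.22, SD 0.015, n = 2), a 1.16-fold rise. The same value was -0.06 to 0.04 in the 8 other arrays, so the groups did not overlap. An exact two-sided permutation test of 2 against 8 arrays gave p = 0.022, the smallest that its 45 splits allow, while 2 Ts11 against 2 WT arrays alone cannot go below 0.33. A rise by the full ratio of 3 copies over 2 would be 0.585, and the measured mean difference in array signal was 37.2% of it. How far array signal follows the amount of RNA was not tested, so this is no measured share of RNA output. Adjusted over 20 chromosomes the same exact permutation test gives p = 0.15 for chromosome 11, which is tied with chromosomes 1 and X at the smallest unadjusted p.

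**Figure D1:**
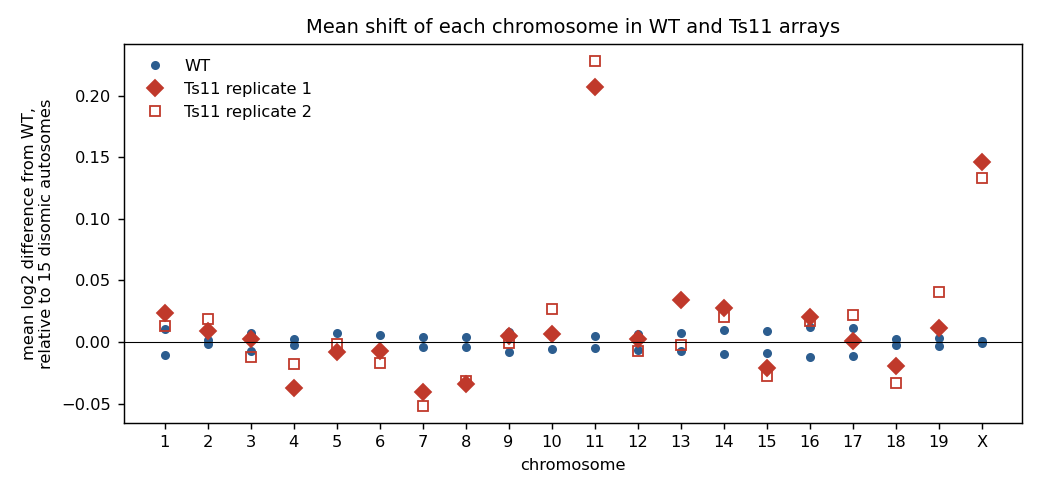
Mean log2 difference from WT of the genes of each chromosome, taken against the 15 autosomes with no extra copy in any line, for each WT array (filled circles) and each Ts11 array (diamonds and open squares). Chromosome 11 stands at 0.21 and 0.23 and chromosome X at 0.15 and 0.13 in Ts11, while the means of the 18 other autosomes lie between -0.05 and 0.03.

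The rise was a shift of the distribution and not the work of a few genes. The median chromosome 11 gene differed by 0.18, 69.7% of the 1996 were above 0, and the quartiles were -0.05 and 0.45. Genes elsewhere had a median of -0.01, 48.9% above 0 and quartiles of -0.23 and 0.21. A difference past the copy ratio was seen for 15.0% of chromosome 11 genes and for 6.40% elsewhere. The 174 lincRNAs of the chromosome had a median of 0.17 and its 1822 other genes one of 0.18. In all, 264 chromosome 11 genes (13.2%) were called higher and 29 (1.45%) lower, against 3.33% higher and 4.30% lower elsewhere. The called rises had a median of 0.73, and 74 of the 264 were smaller than the copy ratio. Both Ts11 arrays lay above both WT arrays for 48.5% of chromosome 11 genes and 25.1% elsewhere, and above all 8 other arrays for 24.0% and 4.54%. They lay below all 8 for 1.40% and 5.29%. The counts are sensitive to the few arrays: with any 1 of the 4 left out, 62 to 107 chromosome 11 genes were called higher and 6 to 22 lower. With passage as a covariate, 2 were called higher, neither of them among the 264, and 1 lower.

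**Figure D2:**
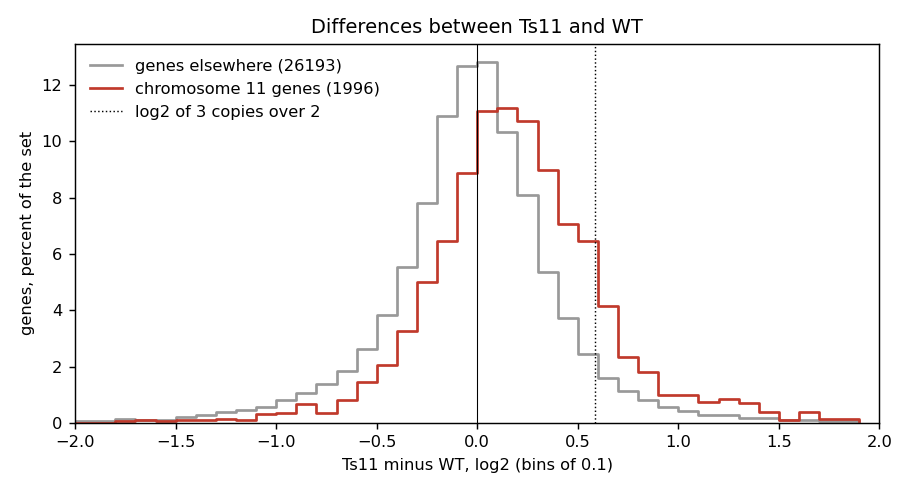
Share of genes (percent of each set, bins of 0.1) by the difference between Ts11 and WT in log2, for chromosome 11 and for all other genes. The chromosome 11 curve peaks to the right of the other, with medians of 0.18 and -0.01, and most of it lies left of the dotted line at the copy ratio (0.585). Values beyond the ends of the axis are not drawn.

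The shift was present at every signal level, and rises of at least 2-fold were nearly absent from the brightest genes. With all tested genes divided into 4 groups of equal size by their mean over the 10 arrays, the chromosome 11 shift averaged 0.16 in the dimmest group, 0.22 and 0.28 in the middle ones and 0.20 in the brightest. In each group both Ts11 arrays exceeded the 8 others. Of 76 rises of at least 2-fold, 18, 29 and 28 lay in the 3 dimmer groups and 1 in the brightest. Among the brightest 589 genes of the chromosome, 59 were called higher with a median rise of 0.56, and 3 lower.

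Along the chromosome the shift was present in every window of 10 megabases (Mb). Window means in Ts11 ran from 0.12 (90 to 100 Mb, 253 genes) to 0.28 (80 to 90 Mb, 165 genes). In all 13 windows both Ts11 arrays exceeded the 8 other arrays, and in 12 the exact two-sided permutation p was 0.022 (adjusted p = 0.024 over the 13). In the window from 90 to 100 Mb it was 0.067, with 0.11 and 0.12 in Ts11 against -0.13 to 0.09 in the others. That window holds the Hoxb cluster and the keratins and 8 of the 29 genes called lower. No window differed from the rest of the chromosome after adjustment (exact permutation, adjusted p from 0.36 to 1). In windows of 5 Mb, the one from 10 to 15 Mb stood below 0, at -0.17 and -0.17, inside the range of the 8 other arrays (-0.61 to 0.06). It holds only 13 tested genes and none was called. The imprinted growth inhibitor Grb10 (mm9 chr11:11833165-11833224, probe) read -1.37 and -1.34 in WT, -2.27 and -1.73 in Ts11 and -3.60 to -1.10 in the other lines. At 105 to 110 Mb the shift was 0.37, from 0.32 and 0.41, the highest of the 5-Mb windows, with 13 of 70 genes called higher and none lower.

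**Figure D3:**
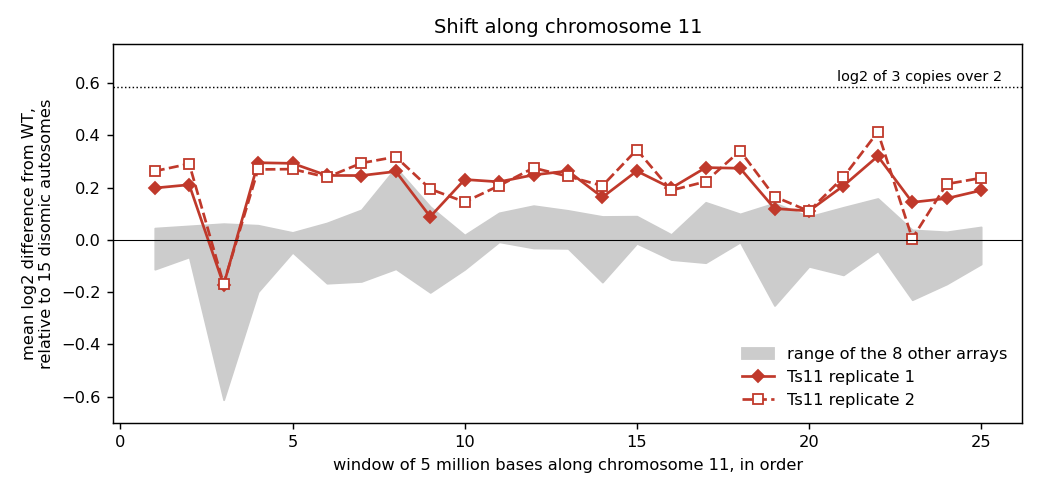
Mean log2 difference from WT, taken against the 15 autosomes with no extra copy in any line, for 25 consecutive windows of 5 Mb along chromosome 11, in each Ts11 array, with the range of the 8 other arrays in grey. Both Ts11 lines run above the grey band in most windows and below the dotted copy ratio in all. The third window dips to -0.17 in both, inside the grey band.

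The highest called rises on the chromosome included those of B4galnt2, Prss38, Hormad2 and Hsd17b1. B4galnt2, a glycosyltransferase of intestinal epithelium (mm9 chr11:95724942-95725001), read -2.02 and -2.54 in WT and -0.52 and 0.78 in Ts11, a rise of 2.41 (SE 0.57, adjusted p = 0.0429). Its arrays do not overlap, but the other lines reached 0.42, and the difference from their mean was not called (0.78, adjusted p = 0.352). Prss38, a serine protease (chr11:59186171-59186230), rose from -3.86 and -4.52 to -2.06 and -1.59, by 2.36 (SE 0.31, adjusted p = 0.00647). It was called against the other lines (1.05, adjusted p = 0.0461), although Ts6, at -1.25 and -1.95, overlapped Ts11. Hormad2, a protein of meiotic chromosome axes (chr11:4246466-4246525), stood at -2.79 and -2.81 in WT and at -0.87 and -0.42 in Ts11, a rise of 2.16 (adjusted p = 0.00303). Both Ts11 arrays were above the 8 others, and the difference from the other lines was 0.95 (adjusted p = 0.0244). Hsd17b1, which makes oestradiol from oestrone (chr11:100941537-100941596), rose by 2.14 from -1.60 and -2.34 to -0.22 and 0.56 (adjusted p = 0.0111). Its difference from the other lines was not called (0.91, adjusted p = 0.0832), although both Ts11 arrays were above the 8 others.

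Several of the highest rises were also called against the mean of the other trisomic lines. Klhl10, a substrate adaptor needed in spermatids (chr11:100318241-100318300), had WT levels of -2.40 and -2.37, Ts11 levels of -0.79 and -0.35 and levels of -2.70 to -2.03 in the 6 other arrays. Ts11 was thus above all 8, by 1.82 over WT (adjusted p = 0.00295) and 1.81 over the other lines (adjusted p = 0.00166). Pecam1, the adhesion molecule CD31 that both endothelium and naive ES cells display (chr11:106540864-106540923), rose from 0.04 and 0.13 to 1.40 and 2.07, by 1.65 (SE 0.29, adjusted p = 0.0175). It differed from the other lines by 1.31 (adjusted p = 0.0200). The acyl-CoA synthetase Acsl6 rose by 1.68, the type I keratin Krt23 by 1.78 and the surface receptor Cd7 by 1.49, and each was also called against the other lines. Lypd9 (1.82), Efcab3 (1.78) and Fam183b (1.73) were called in both comparisons, while Arsg (1.99) and Alox12b (1.69) did not pass against the other lines. Neighbouring germ cell genes near the end of the chromosome, Tex19.1 and Tex19.2, which restrain transposons, rose by 0.87 and 1.53 and were called in both comparisons. Ccdc182 and the keratin Krt34 were above background only in Ts11, at least 2.38-fold and 2.00-fold higher, bounds set by the lowest signal called well above background on each WT array.

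Called rises nearer to the copy ratio included those of Brca1, Cdc6, Trim37, Suz12 and Egfr. Brca1, a DNA repair and tumour suppressor gene (mm9 chr11:101359283-101363319, a probe across an intron), read -1.50 and -1.66 in WT and -0.74 and -0.84 in Ts11, a 1.73-fold rise (0.79, SE 0.10, adjusted p = 0.00638). Cdc6, which loads the replicative helicase (chr11:98782986-98783045), rose 1.73-fold from 1.01 and 1.22 to 1.89 and 1.93 (adjusted p = 0.00781). Trim37, a ubiquitin ligase, rose 1.66-fold from 0.29 and 0.36 to 1.05 and 1.07 (adjusted p = 0.00647). Suz12, a core subunit of Polycomb repressive complex 2 (chr11:79847251-79847310), rose 1.54-fold from 1.84 and 1.89 to 2.45 and 2.53 (adjusted p = 0.0249). Egfr, the epidermal growth factor receptor (chr11:16783556-16783615), rose 1.54-fold from -1.58 and -1.53 to -0.85 and -1.02 (adjusted p = 0.0138). For all 5 both Ts11 arrays exceeded the 8 others, and all were called against the other lines.

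**Figure D4:**
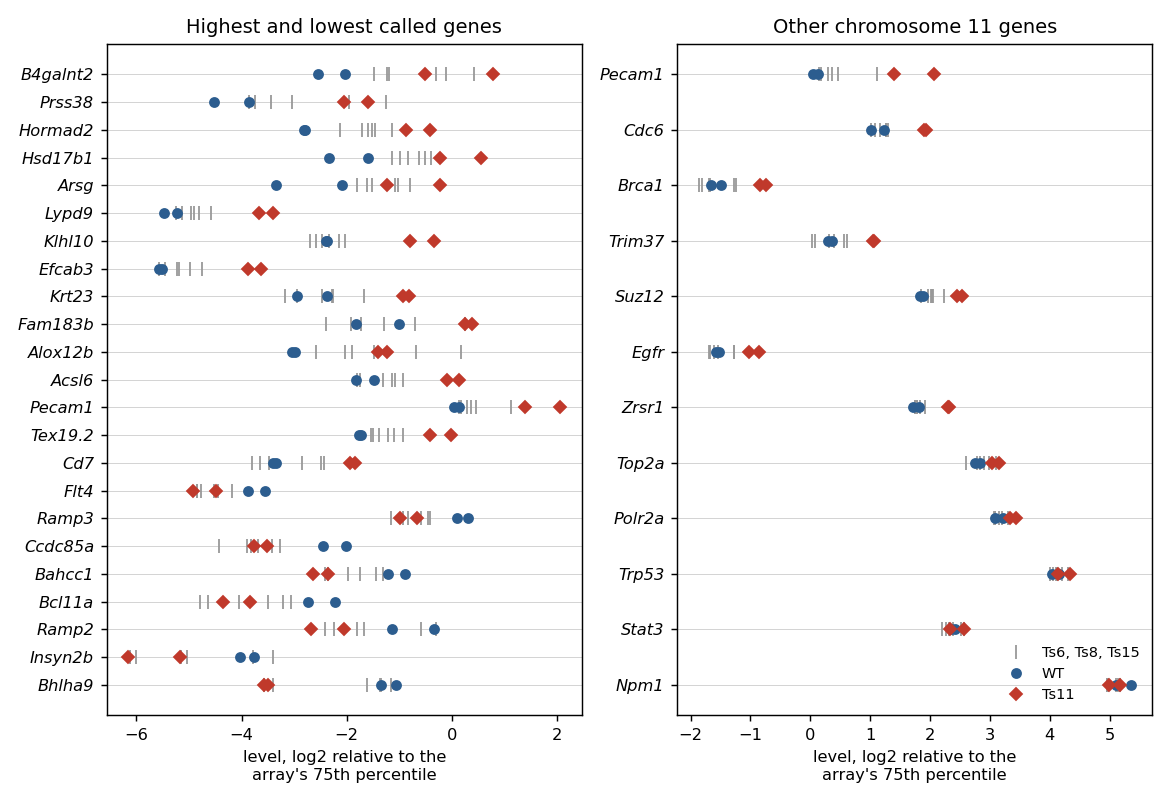
Levels (log2 relative to the array's 75th percentile) of chromosome 11 genes on every array: WT circles, Ts11 diamonds, the 6 arrays of Ts6, Ts8 and Ts15 as ticks. Left, the 15 highest and 8 lowest called genes; right, 12 further genes, from Pecam1 (1.65) to Npm1 (-0.15), where the upper 7 rose and Trp53, Stat3, Top2a, Polr2a and Npm1 did not pass the test.

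Bright and well-studied genes of the chromosome often did not pass the test. Trp53, the p53 tumour suppressor (chr11:69404204-69404263), read 4.15 and 4.03 in WT and 4.34 and 4.14 in Ts11, a difference of 0.15 with overlapping arrays (SE 0.11, adjusted p = 0.455). Stat3, which carries the LIF signal for self-renewal, differed by 0.07 (adjusted p = 0.776) and its feedback inhibitor Socs3 by -0.13 (adjusted p = 0.536), both with overlapping arrays. Top2a, the mitotic topoisomerase, stood at 2.75 and 2.83 and 3.15 and 3.03 (difference 0.30, adjusted p = 0.143). Polr2a, the large subunit of RNA polymerase II, stood at 3.08 and 3.21 and 3.34 and 3.44 (difference 0.24, adjusted p = 0.198). For both the groups do not overlap. The nucleolar protein Npm1 (-0.15), the helicase Eif4a1 (-0.13), fatty acid synthase Fasn (-0.33) and Acly (0.23), which makes cytosolic acetyl-CoA, were not called.

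Lists of chromosome 11 genes by function had medians above 0 in all but the Hoxb cluster, with few calls in each. All counts here are read against 13.2% called higher, 1.45% called lower, 69.7% above 0 and a median of 0.18 for the chromosome. Of 33 chromatin and transcription regulators, 5 rose and 2 fell, with a median of 0.23. Suz12 is described above, the TFIID-linked RNA-binding protein Taf15 rose by 0.71, the histone H3.3 gene H3f3b by 0.53 and the Mediator subunit Med31 by 0.53. The zinc finger repressor Bcl11a fell by 1.62. The Mediator subunit Med1 fell by 0.49 on its brightest probe, but its 4 probes ran from -0.49 to 0.48 and their mean turned to 0.19, so its direction is not settled.

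Of 32 cell cycle and DNA repair genes, 3 rose and 1 fell (median 0.20). Ccng1, a p53 target, rose by 0.78 (adjusted p = 0.0370), and the ciliary kinase Nek8 fell by 0.47. Of 33 protein folding and turnover genes, 8 rose and none fell (24.2%, median 0.17). They include the chaperonin paralogue Cct6b (1.20), the Hsp90 co-chaperone gene Ahsa2 (0.82), the autophagy genes Becn1 (0.70) and Sqstm1 (0.60), and the deubiquitinases Usp32 (0.68) and Usp22 (0.50). Becn1, needed to start autophagosomes, read -0.36 and -0.58 in WT and 0.15 and 0.32 in Ts11, above all 8 other arrays. Sqstm1, the autophagy cargo receptor p62, read 2.61 and 2.43 and 3.19 and 3.04, also above all 8. Of 41 signalling genes 4 rose and none fell (median 0.12), among them Map3k3 (0.53) and the S6 kinase Rps6kb1 (0.53).

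Of 45 RNA and translation genes 3 rose and none fell (median 0.16), namely Dhx40 (0.81), Utp18 (1.10) and Zrsr1 (0.54). Zrsr1, an imprinted splicing factor gene (chr11:22874611-22874670), read 1.71 and 1.81 in WT and 2.29 and 2.32 in Ts11. Commd1 (chr11:22856412-22856471), the gene in which it lies, read 2.25 and 2.21 and 2.71 and 2.88, a rise of 0.57. For both, Ts11 lay above the 8 other arrays. Of 41 metabolic and mitochondrial genes 2 rose, Hsd17b1 and Ugp2 (0.62), which makes UDP-glucose (median 0.13). Of 43 transcription factors 2 rose and none fell (median 0.18): the homeobox gene Tlx3 (1.37) and the zinc finger repressor Hic1 (0.86). Of 23 type I keratins 4 rose and none fell (median 0.30), namely Krt23, Krt34, Krt15 (0.97) and Krt12 (0.71). The 2 probes of Krt12 ran from -0.19 to 0.71. None of 18 chemokines and cytokines was called (median 0.03). The Hoxb cluster had 1 of 10 called, Hoxb1 at -1.26, a median of -0.48 and 3 of 10 above 0.

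Of the 29 called falls, 12 were of at least 2-fold. Bhlha9, a limb transcription factor (chr11:76487119-76487178), read -1.34 and -1.05 in WT and -3.58 and -3.50 in Ts11, a fall of 2.34 (SE 0.15, adjusted p = 0.000659). It was also called lower than the mean of the other lines (adjusted p = 0.00166), although Ts6, at -3.57 and -3.40, was level with Ts11. Grm6, a metabotropic glutamate receptor (chr11:50679649-50679708), was above background in WT (-3.83 and -4.17) and not well above background in Ts11 (-6.48 and -8.25), at least 4.69-fold lower. The receptor activity modifying proteins Ramp2 and Ramp3, which set the ligand of the calcitonin-like receptor, fell by 1.62 and 1.03. For Ramp3 the other lines, at -1.16 to -0.41, lay with Ts11 and not with WT. Insyn2b (-1.76), Bahcc1 (-1.45), Ccdc85a (-1.40) and the lymphatic receptor gene Flt4 (-0.99) were also lower, and of these Bahcc1 was called against the other lines. The 3 probes of Ccdc85a ran from -1.40 to 0.23, so they did not all fall.

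A pair of gene families with members beside each other on the chromosome were singled out after their values were seen. Of 6 tested myosin heavy chain genes 5 were called higher, against 13.2% of the chromosome, and 4 of them also against the other lines (14.3% of the chromosome), although the skeletal muscle members lie in one cluster and are alike in sequence, so cross-hybridisation between them is possible. Myh4 rose by 1.38 from -2.88 and -3.51 to -1.93 and -1.70, Myh13 by 1.28, the embryonic form Myh3 by 1.16 from -1.56 and -1.67 to -0.36 and -0.55, and Myh8 by 0.60. The nonmuscle form Myh10, which lies apart, rose by 0.47 from 1.55 and 1.64 to 2.09 and 2.05. Myh1 was dim (-5.81 and -5.86 in WT, -5.71 and -6.55 in Ts11) and not called. Of 6 lipoxygenase genes, which oxidise polyunsaturated fatty acids, 4 were called higher and 1 lower (13.2% and 1.45% of the chromosome). Alox12 rose by 1.35, Alox12b by 1.69, Alox12e by 1.01 and Aloxe3 by 0.93, and Alox8, at -6.37 and -6.40 in WT, was called lower but not well above background in Ts11, so it has no fold.

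Of the 174 lincRNAs, 20 were called higher and none lower, against 13.2% and 1.45% of all genes of the chromosome. The probes of the 5 with the lowest p are printed 5′ to 3′, because the array gives them no gene symbol. They are named by the interval and strand that the array gives (F forward, R reverse). Capitals mark the 33 bases at which the probes of an opposed pair cover the same stretch of the genome on opposite strands.
chr11:97305584-97309994_F: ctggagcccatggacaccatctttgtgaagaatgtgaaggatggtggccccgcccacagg
chr11:59215375-59215935_R: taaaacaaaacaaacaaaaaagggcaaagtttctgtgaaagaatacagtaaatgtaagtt
chr11:16831925-16851121_R: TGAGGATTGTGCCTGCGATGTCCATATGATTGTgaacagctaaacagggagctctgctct
chr11:16831925-16851121_F: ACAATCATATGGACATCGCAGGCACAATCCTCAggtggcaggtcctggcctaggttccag
chr11:69186873-69187472_F: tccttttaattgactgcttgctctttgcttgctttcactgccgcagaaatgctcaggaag
The first probe (mm9 chr11:97309504-97309563, plus strand) read -0.56 and -0.45 in WT and 1.28 and 0.92 in Ts11, a rise of 1.61 (SE 0.15, adjusted p = 0.00244). The nearest gene probes listed, 42682 to 54092 bases away, differed by 0.47 (ENSMUST00000056955), 0.16 (Socs7) and 0.02 (Arhgap23), and none was called. The other probe of that lincRNA gave 0.26. The second (chr11:59215868-59215927, minus strand) rose by 1.16 from -4.03 and -4.22 to -2.87 and -3.06 (adjusted p = 0.00399), and its other probe gave 1.25. The opposed pair (chr11:16835674-16835733, minus, and chr11:16835701-16835760, plus) rose by 1.34 and 1.19 (adjusted p = 0.00894 and 0.00909), with levels in Ts11 of -0.26 and 0.11 and -1.25 and -1.0 against -1.22 and -1.61 and -2.27 and -2.34 in WT. Further probes of these lincRNAs gave as little as -0.07 and 0.14. The probe of 2810442I21Rik, which overlaps the minus-strand probe on the same strand, rose by 1.20. Whether both report the same RNA was not tested. The fifth (chr11:69187049-69187108, plus) rose by 1.24 from -4.17 and -3.83 to -2.99 and -2.54 (adjusted p = 0.0150). All 5 were called against the other lines as well.

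Tested without WT, Ts11 against the mean of the other 3 lines, 285 chromosome 11 genes (14.3%) were called higher and 20 (1.00%) lower, against 3.09% and 3.87% elsewhere. Of the 264 rises over WT, 163 were among them, and of the 29 falls 12. These comparisons share the Ts11 arrays. Elsewhere, 388 of 872 rises and 539 of 1126 falls were called against both.

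Outside chromosome 11, 872 of 26193 genes (3.33%) were called higher and 1126 (4.30%) lower, 346 and 423 of them by at least 2-fold. In the series table as deposited the counts were 1377 and 949, and 64.85% of all calls were higher, against 49.59% here. With passage as a covariate, 28 and 17 were called. The chromosome X set stood apart, with 115 of 1123 genes higher (10.2%), 39 lower, and a mean shift of 0.15 and 0.13 in the Ts11 arrays against -0.05 to 0.04 in the 8 others (exact permutation p = 0.022, adjusted p = 0.15 over the 20 chromosomes). The X median moved by only 0.04. Among the called X genes were families of germ cell genes, many of them multicopy and expressed in testis or placenta, which were singled out after their values were seen and are described without a test. Of 49 tested members of the Xlr, Rhox, Magea, Ssx, Fthl17, Ctag2 and Nxf families, 37 were called higher and none lower, with a median of 1.29, and 32 of the 37 were also called against the other lines. Probes of related members can capture each other's RNA. Their shift was 1.28 and 1.49 in Ts11 against -0.24 to 0.28 in the 8 other arrays. The 1074 other X genes had a median of 0.02, with 78 higher (7.26%) and 39 lower. Their shift was 0.09 and 0.07 in Ts11 against -0.05 to 0.03 in the 8 other arrays.

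**Figure D5:**
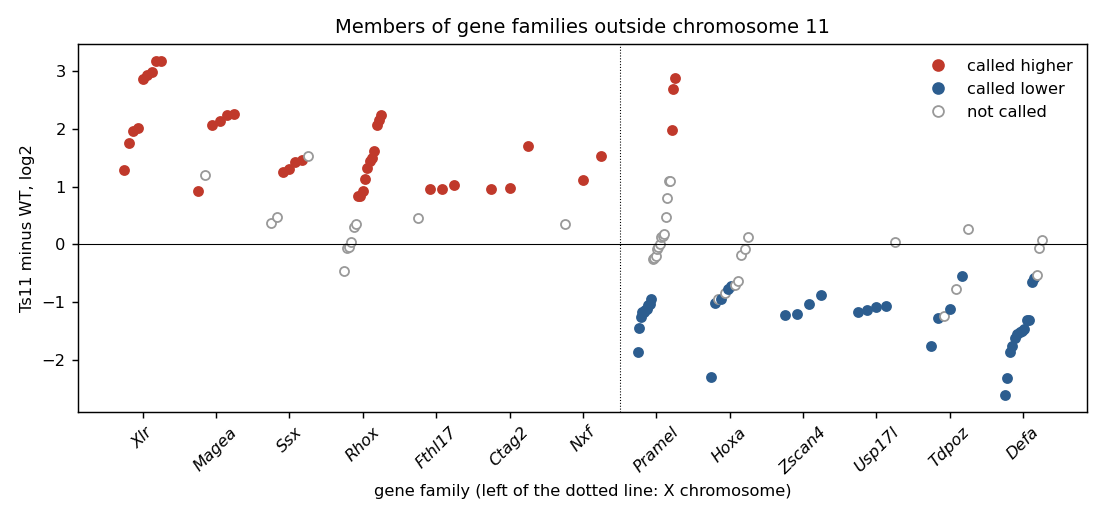
Difference between Ts11 and WT (log2) for every tested member of 13 gene families outside chromosome 11, filled where called. The families left of the dotted line are on chromosome X and hold 37 called rises among 49 members; on the right, Zscan4, Usp17l, Tdpoz, Hoxa and Defa hold called falls and no called rise, and the Pramel column, which includes the X-linked Prame, holds both.

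All 9 Xlr genes, relatives of the synaptonemal complex protein Sycp3, rose, by 1.29 to 3.17, and in all 9 both Ts11 arrays lay above the 8 others. Xlr3b (mm9 chrX:70448087-70448146) read -1.12 and -1.03 in WT, 2.11 and 2.08 in Ts11 and -0.94 to 0.19 in the other lines, a 9.01-fold rise (SE 0.14, adjusted p = 0.000201). Xlr3a read -2.0 and -2.23 and 1.10 and 1.0, an 8.97-fold rise. Members of a subfamily are near-identical, so their probes may report the same transcripts. Of 17 Rhox homeobox genes 11 rose, led by Rhox2c (2.24), Rhox4a (2.16) and Rhox2e (2.06), while Rhox8, Rhox9 and Rhox10 differed by -0.04, -0.06 and 0.04 and were not called. Of 6 Magea genes, melanoma antigen relatives silent in most somatic tissue, 5 rose, with Magea1 going from -4.79 and -4.22 to -2.48 and -2.05. None of the 9 tested Mage genes of the other subfamilies was called. H2bfm, an X-linked histone H2B variant, rose by 2.62 from -3.74 and -3.56 to -1.11 and -0.95 and Esx1, a placental homeobox gene, by 1.24.

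X and Y dosage markers moved too. Xist, the RNA that coats an inactive X, read -0.81 and 0.04 in WT and 0.97 and 0.65 in Ts11, a rise of 1.20 (adjusted p = 0.0449) that did not hold against the other lines, which spanned -0.16 to 0.96 (adjusted p = 0.285). The Y-linked genes Eif2s3y and Ddx3y were well above background in WT (0.84 and 0.70, and -0.69 and -0.69) and on no Ts11 array, at least 128-fold and 46.5-fold lower, and Uty at least 2.03-fold. Eif2s3y was near its Ts11 levels (-8.78 and -8.21) on both Ts6 arrays (-8.178 and -8.145). It was also below WT in Ts8 (-3.08 and -2.99), but not in Ts15 (0.85 and 0.77). Of 10 tested Y-linked genes 3 were called lower and 1 higher, against 4.10% and 4.03% over all genes, with 4 of 10 above 0. The called rise was that of Ssty2, by 0.60. The labels give the sex of AB1 only, and whether Ts11 holds a Y chromosome was not tested.

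Dppa3 and Pramel6 were among the highest autosomal rises. Dppa3, the maternal factor Stella that guards methylation in the early embryo (mm9 chr6:122580207-122580266), read -2.68 and -2.76 in WT and 1.02 and -0.02 in Ts11, a 9.30-fold rise (SE 0.35, adjusted p = 0.00356). Chromosome 6 is trisomic in Ts6, and the other lines spanned -1.98 to 0.58. Pramel6, an inner cell mass gene, read -4.23 and -4.59 and -1.53 and -1.56, a rise of 2.87 (adjusted p = 0.00983), with the other lines at -6.09 to -4.19. Of the germline list 10 of 30 members rose and 1 fell (median 0.48), against 4.03% higher, 4.10% lower and a median of 0.00 over all genes. All 3 members on chromosome 11 rose. The 27 elsewhere had 7 rises and 1 fall (median 0.42), against 3.33% and 4.30% of genes outside chromosome 11. Against the mean of the other lines, 3 of these 27 were called higher and 3 lower. Meiob, a meiotic recombination protein, rose by 2.14, Asz1, a piRNA pathway protein, by 1.72, and the synaptonemal complex genes Sycp1 and Sycp2 by 1.29 and 1.08. For Meiob the other lines (-2.84 to -2.13) were at the Ts11 level (-2.90 and -2.90), so WT was the low group. Nanos3, a germ cell survival gene, fell by 1.19. The hedgehog inhibitor Hhip (2.89), the connexin Gjb2 (2.88), the kinase Dyrk4 (2.38) and alcohol dehydrogenase Adh1 (2.31) were further high rises. Dnajc5g, Akr1cl, Rfx8, Prame and Art4 were not well above background in WT and at least 5.26-fold, 4.46-fold, 4.28-fold, 3.76-fold and 3.34-fold higher.

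Genes of the 2-cell-like state, a rare state of ES cultures that resembles the early embryo, were lower in Ts11: of 23 tested 12 fell and 1 rose, with a median of -0.83, against 4.10% lower over all genes. Zscan4c read 2.67 and 2.51 in WT and 1.32 and 1.44 in Ts11, a fall of 1.21 (SE 0.13, adjusted p = 0.00384), and its relatives Zscan4a, Zscan4b and Zscan4f fell by 1.19, 1.03 and 0.87. Dux, the transcription factor that starts the state, fell by 0.83. The single rise was Zfp750, a chromosome 11 gene, at 1.46. The other lines spanned 0.54 to 2.94 for Zscan4c, both below and above Ts11. Against their mean, 8 of the 23 were called lower and 1 higher, where 3.87% and 3.09% of genes outside chromosome 11 were called. Zscan4 copies are alike, so they do not count as separate genes. Bulk RNA does not tell fewer cells in the state from less RNA per cell.

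Other falls outside chromosome 11, beside the Y-linked genes, included those of Gkn2, Ccdc3 and Syt13. Gkn2, a gastric epithelium protein (mm9 chr6:87329285-87329344), read -0.64 and -1.75 in WT and -6.28 and -5.31 in Ts11, a 24.2-fold fall (adjusted p = 0.00689), but the other lines spanned -6.18 to -1.59 (adjusted p = 0.134). Ccdc3, a secreted protein, read -1.68 and -1.07 and -4.03 and -4.86 (-3.07), and Syt13, a synaptotagmin, -0.10 and -0.12 and -2.65 and -2.86 (-2.64). For both, Ts11 lay below all 8 other arrays, as it did for Hoxa10 (-2.28), Atp1a4 (-2.15), the aquaporin Aqp8 (-2.07), Chst5 (-2.06), the growth factor Fgf15 (-2.0) and Chil3 (-2.0). Apcs (-2.25), Neurog3 (-2.18) and Jph4 (-2.0) fell too. Defa42, Ptger3 and Cyp2c67 were not well above background in Ts11, at least 4.33-fold, 3.12-fold and 2.87-fold lower.

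The unfolded protein and amino acid response, which raises chaperones and amino acid supply when protein folding or supply falters, had 5 of 32 genes higher, none lower, 31 of 32 above 0 and a median of 0.49. The shares over all genes, to which the counts of the next lists compare too, were 4.03% higher, 4.10% lower and 50.4% above 0, with a median of 0.00. Herpud1, a factor of endoplasmic reticulum degradation (mm9 chr8:96919117-96919176), rose 3.51-fold from 0.57 and 0.42 to 2.34 and 2.27 (SE 0.12, adjusted p = 0.000713). The other lines lay between, at 1.15 to 1.53, although chromosome 8 is trisomic in Ts8. Trib3 rose by 1.05, the co-chaperones Dnajb9 and Dnajb11 by 0.99 and 0.50 and Chac1 by 0.77. Of the 28 list genes outside chromosome 11, 3 were called higher than the mean of the other lines, where 3.09% of genes there were. Trib3, Dnajb11 and Chac1 were not called against that mean. Chac1 stood at 1.00 and 0.82 in Ts6 and 1.21 and 0.87 in Ts15, above Ts11 (0.71 and 0.52). In Ts8 it stood at -0.40 and -0.66. Of 33 heat shock and chaperonin genes 1 was called, Ahsa2 on chromosome 11, and Hsp90ab1 (-0.42) and Hspa8 (-0.34) did not pass. None of 39 proteasome genes was called. The 7 on chromosome 11 had a median of 0.09 and the 32 elsewhere one of -0.10. Of 79 cytosolic ribosomal protein genes 1 fell, Rps16 at -0.52, though its 3 probes ran from -0.52 to 0.06. The 7 on chromosome 11 had a median of 0.02 and the 72 elsewhere one of -0.20.

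The lists of cell states and signals are again read against 4.03% higher and 4.10% lower over all genes. Of 27 core pluripotency genes Dppa3 rose, Lin28a, a blocker of let-7 maturation, fell by 0.55 and Gbx2 by 1.27, and Nanog (5.15 and 5.12 in WT, 4.89 and 4.88 in Ts11) and Pou5f1 each differed by -0.25 without passing. With both Stat3 and Socs3 on the trisomic chromosome, 24 Stat3 and LIF targets were counted: Gbx2, the kinase Pim1 (-0.64) and Junb (-0.86) fell and Cebpb (0.66) rose. Of 32 p53 targets Ccng1 alone was called, itself on chromosome 11, and Bax (0.09) and Gadd45a (-0.02) were not. Among 21 mesoderm genes Wnt8a (-1.84), Cdx1 (-1.07) and Hoxb1, well above background on 1 of 2 Ts11 arrays, fell. None of 20 primitive endoderm genes was called against WT (median -0.41). Of the 18 outside chromosome 11, 9 were called lower than the mean of the other lines, where 3.87% of genes there were. In Apoe, Lamb1 and Lamc1, which were not called, Ts15 was the highest line (Lamb1 3.71 and 3.62, against 2.88 and 2.78 in Ts11). None of 15 neuroectoderm genes was called, and of 18 trophectoderm genes Esx1 and the hormone gene Sct (0.64) rose.

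Among other pathways, with the same 4.03% and 4.10% over all genes, 47 DNA replication genes gave 2 rises, Brca1 and Cdc6, both from chromosome 11, and 1 fall, Pold1 (-0.43). None of 41 mitosis genes was called. Of 31 glycolysis and hypoxia genes Ero1a (0.77) rose and Pdk1 (-0.96), a brake on pyruvate entry into mitochondria, fell. Of 32 sterol and fatty acid synthesis genes only Srebf2, the master regulator of sterol synthesis, was called, at -0.95, with a list median of -0.44 and 4 of 32 above 0. Of 37 imprinted genes 3 rose (Zrsr1, Commd1 and Xist) and 3 fell: the cyclin-dependent kinase inhibitor Cdkn1c (-0.82), Phlda2 (-0.85) and Mirg (-0.84). Of 40 interferon and antigen presentation genes only Irf3 was called, at -0.77.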

How the data were processed

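RNA was linearly amplified and labelled with Cy3, per the labels' protocols, and hybridised to 1-colour Agilent mouse arrays with probes for mRNAs and lincRNAs. The deposited intensity values were made by the authors with Agilent Feature Extraction 10.7.3.1, per the file headers, with spatial and multiplicative detrending and surrogate values for dim spots, probes placed on mm9, and no normalization between arrays recorded. The deposited series table holds log2 values whose normalization and centring by the authors are not given in the sources used here. It rose with the scanner signal, its medians were -3.40 and -3.40 in WT and -3.32 and -3.31 in Ts11, and it served as an alternative.

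Each level is the log2 processed signal of a spot less the 75th percentile of its array's noncontrol spots. Of 55681 probes, 176 with a flagged value were left out, and 43056 passed the filter, which asked for both arrays of 1 or more of the 5 groups to be well above background. The probe with the highest mean over the 10 arrays stood for its gene. RefSeq accessions gave current names for 26863 of 29060 probes that carry one. limma 3.58.1 in R 4.3.3 was fitted with 1 mean per group over 10 arrays (5 residual and 2.67 prior degrees of freedom) and tested on simulated data; Python 3.11.15 served for the rest. Shifts were tested by two-sided exact permutation. The spread over 2 arrays a group limits the precision.

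Named genes were the 15 highest and 8 lowest called genes on chromosome 11 and the 12 highest and lowest elsewhere (with a symbol, above background on the 4 arrays, groups apart), the 5 highest bounds in each direction, the highest gene of each window, called list members and preset genes. In a list with under 4 calls, bright members filled it to 4. Further family members and neighbours were named after their values were seen. The members and lists were chosen with earlier results of these data known. Alternatives were normalization, background, filter, probe choice, arrays in the fit, passage, replicate block, variance trend and leaving out each array. Replicate numbers, which are also slide rows, were not taken to pair the samples.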

Additional observations from a re-analysis of the deposited data

Results flagged for a closer look

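Among genes outside chromosome 11 named for their difference or bound, 21 differed in Ts11 from the mean of the other 3 trisomic lines. The test was limma with Benjamini-Hochberg adjustment, and both Ts11 arrays lay beyond all 8 others. Some genes named as list members met both conditions too, among them Cdx1 (-2.52), Herpud1 (0.92) and Dnajb9 (0.72). The differences are on the log2 scale. On chromosome X, Xlr3a was higher by 2.97, Xlr3b by 2.68, Xlr4a by 2.60, Xlr4d-ps by 2.51, Xlr4b by 2.48 and H2bfm by 2.33. The first 5 are related copies and do not count as separate genes. On autosomes Pramel6 was higher by 3.36, Akr1cl by 2.40, Art4 by 2.15, Adh1 by 1.98, Dnajc5g by 1.75 and Dyrk4 by 1.20. Differences of the lower genes were -1.70 for Aqp8, -1.65 for Ptger3, -1.64 for Chst5, -1.49 for Ccdc3, -1.39 for Hoxa10, -1.38 for Syt13 and -1.20 for Atp1a4. Dyrk4, Hoxa10 and Art4 lie on chromosome 6 and Chst5 on chromosome 8, which have an extra copy in Ts6 and in Ts8, so their mean over the other lines includes that dosage. The Y-linked genes Eif2s3y (-5.03) and Ddx3y (-3.85) were not well above background on the Ts11 arrays, nor was Ptger3. Both Ts6 arrays were near Ts11 for Eif2s3y (-8.178 and -8.145) and Ddx3y (-8.141 and -8.123), so these low levels are not particular to Ts11. Akr1cl, Art4 and Dnajc5g were not well above background in WT and ran down to -7.86, -8.65 and -7.36 in the other lines. The differences of these 6 genes depend on signals near background, and are no measured folds.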

How the results depend on the processing

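The chromosome 11 shift stayed between 0.18 and 0.23 under every setting, and was 0.2067 to 0.2280 with 1 array left out, where Ts11 as a single array cannot reach p under 0.05 (exact permutation p = 0.11). With only the 4 arrays it was 0.2173 (exact permutation p = 0.33), and with passage as a covariate 0.20, with no p. The chromosome X shift, a result chosen after seeing the data, stayed between 0.12 and 0.15 in the settings run. Counts of calls (chromosome 11 higher and lower, then elsewhere higher and lower; 264, 29, 872 and 1126 as reported) moved more. They were 139, 18, 536 and 642 with no filter on dim probes, 20, 3, 143 and 150 with 4 arrays, 158, 18, 580 and 732 on slide 1 alone, and 2, 1, 28 and 17 with passage as a covariate. The series table gave 422 and 1377 higher, and a trend in the variance prior gave 45 lower on chromosome 11. In the series table the median of all genes moved to 0.09. With 1 array left out the ranges were 62 to 107, 6 to 22, 344 to 490 and 364 to 633. The lowest count for chromosome 11 in both directions came without WT replicate 2. Med1 turned to 0.19 with the mean of all probes, the only one of 282 named and family genes to reverse in 16 settings. With passage as a covariate 203 of the 282 lost their call, and with the 4 arrays 153. Neither of the 2 chromosome 11 rises called with passage as a covariate was among the 264. Why calls moved was not tested, beyond the fewer arrays or added term.

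The replicate number as a block gave 261, 29, 891 and 1123 calls and a shift of 0.2173 (exact permutation p = 0.040). Deviations of same-numbered arrays of WT and Ts11 correlated at -0.1005, and those of all 10 pairs of groups at -0.1005 to 0.392, so the numbers are not taken to pair the samples. Same-numbered arrays also share a slide row, which this block cannot be told apart from. A crossed pairing of Ts11 against the other groups, added after seeing the data, gave 182, 20, 665 and 810 calls. Dim signals limit the fold of genes near background, given as bounds.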

Other observations

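Several autosomal gene families had many members called, and they were chosen after their values were seen and are described without a test. Over all genes 4.03% were called higher and 4.10% lower. Of 16 alpha-defensin genes (Defa), which encode antimicrobial peptides of the gut, 13 were called lower in Ts11 than in WT, with a median difference of -1.48. Defa40 read -1.34 and -1.41 in WT and -3.39 and -2.86 in Ts11, and Defa3 read -1.18 and -1.34 and -2.99 and -2.46. Of 12 Hoxa genes, which pattern the body axis, 5 were called lower and none higher, with a median of -0.74. Hoxa9 went from -4.39 and -4.62 to -5.44 and -5.59. Of 26 Pramel genes, expressed in germ cells and early embryos, 10 were called lower and 3 higher. Pramel20 fell by 1.12, while Pramel7 rose by 1.97 beside Pramel6. Of 5 Usp17l deubiquitinase genes 4 were called lower, and of 7 Tdpoz genes 4. Usp17lc, Pramel16, Pramel31 and Tdpoz4 also belong to the 2-cell-like list. Against the mean of the other lines, 11 Defa, 4 Hoxa, 10 Pramel and 3 Usp17l genes were called lower. No Tdpoz gene was, and 4 Pramel genes were called higher. The shares outside chromosome 11 were 3.87% lower and 3.09% higher. Both Ts6 arrays lay below Ts11 for Pramel20 (-1.40 and -1.28 against -0.78 and -0.28) but above it for Defa40 (-1.49 and -1.72). Defa genes differed in this, and Ts6 overlapped Ts11 for Defa39 (-5.44 and -5.27 against -5.39 and -5.06). It did so too for Defa38 (-4.99 and -4.86 against -4.89 and -5.02). Close copies in these families can share probe signal.

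Of 303 olfactory receptor genes 6 were called higher and 1 lower, with a median of 0.03, and of 65 vomeronasal receptor genes none was called higher and 4 lower. Against the mean of the other lines, 23 olfactory receptor genes were called higher and 5 lower, and 3 and 5 vomeronasal ones, where 3.09% and 3.87% of genes outside chromosome 11 were called.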
